A study of Mus musculus with 6 samples.

Results

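Periostin, the tenascins, SPARC and the spondins are secreted matricellular proteins, and 8 of their genes were examined in 6 bulk RNA sequencing libraries of lineage-traced cells from the mouse aorta. The genes were *Postn*, *Tnc*, *Tnxb*, *Tnn*, *Sparc*, *Sparcl1*, *Spon1* and *Spon2*. They were chosen by gene name, and each matched 1 of the 24421 rows of the deposited matrix. The mice, of strain 129S6/SvEv and 8 weeks old, all carried the *CAG-Sun1/sfGFP* tracer, which places GFP on the nuclear envelope of cells with a history of Cre activity. The deposited columns of all 6 libraries are labelled WT, for wild type. In 3 libraries the Cre was *Mef2cSHF*, which marks descendants of the secondary heart field (SHF), and in the other 3 it was *Wnt1-Cre2*, which marks descendants of the cardiac neural crest (CNC). Living GFP+ cells were sorted from the digested root and ascending segment, and their RNA was amplified by SmartSeq2. Each Cre marks a lineage and not a cell type, so any traced cell of these segments could enter the sort. The study describes the 3 libraries of each lineage as biological replicates.

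Matricellular proteins sit in the extracellular matrix without being its main load-bearing fibers. They bind collagens, growth factors and integrins, and many are made at high level during development and repair and at lower level in resting tissue. SPARC is a collagen-binding glycoprotein that acts in the processing and assembly of fibrillar collagen, and SPARC-like 1 (hevin) is its closest relative. Periostin binds collagen, fibronectin and tenascin-C and signals through integrins that contain the alpha V subunit. Tenascin-C is typical of remodeling tissue, tenascin-X regulates the spacing of collagen fibrils, and tenascin-N (also called tenascin-W) is best known from developing bone and tumor stroma. F-spondin (*Spon1*) was first described in the floor plate of the neural tube, and spondin 2 (mindin) acts in innate immunity and cell adhesion. In the aorta, the SHF contributes smooth muscle of the root and outer wall, and the CNC contributes the inner wall of the ascending segment and the arch.

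Expression was given as TPM, a level scaled to transcript length and to the total of each library, so levels of different genes within a library can be compared. TPM keeps no record of sequencing depth, and the depth behind each value is unknown. A value of 0 is therefore given as listed at 0, not as absence of the transcript. Positions on GRCm38, the build also called mm10, are from GENCODE M21. *Sparc* lies on chromosome 11 from 55394500 to 55423183, *Sparcl1* on chromosome 5 from 104079111 to 104113733, and *Postn* on chromosome 3 from 54361109 to 54391037. *Tnc* lies on chromosome 4 from 63959785 to 64047015, *Tnxb* on chromosome 17 from 34670535 to 34719815, and *Tnn* on chromosome 1 from 160085029 to 160153580. *Spon1* lies on chromosome 7 from 113765998 to 114043370 and *Spon2* on chromosome 5 from 33198184 to 33218455. All are protein-coding. Exons of *Tnxb* overlap exons of the pseudogene *Cyp21a2-ps*, and exons of *Tnc* overlap those of the noncoding *8030451A03Rik*, each on the opposite strand. The library kit does not mark strand, so reads from these overlaps could belong to either gene.

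RefSeq promoter windows on GRCm38.p6, from 250 bases before to 50 bases after a transcript start, were found for 5 of the 8 genes, *Sparc*, *Postn*, *Tnc*, *Tnxb* and *Tnn*, with 2 windows each for *Postn* and *Tnc* and 7 in all. Windows are shown for *Sparc*, the gene with the clearest difference between lineages, for *Postn*, an abundant gene whose libraries overlapped, and for *Tnc*, a gene at or near 0 in most libraries. The *Postn* and *Tnc* windows shown are those whose starts lie within 2 bases of the 5' end of the gene in GENCODE. The only *Sparc* window has its start at 55420080, inside the gene and 3103 bases downstream of its 5' end in GENCODE. All are written 5' to 3' on the strand of the gene. Capitals mark matches on either strand to the TATA box letters TATAAA, to the CCAAT box, to the GGA motif read as GGAGG, or to the core CAGAC of the element bound by Smad proteins. A match is a run of letters and not a known site.
*Sparc*, chr11:55420031-55420330, minus strand: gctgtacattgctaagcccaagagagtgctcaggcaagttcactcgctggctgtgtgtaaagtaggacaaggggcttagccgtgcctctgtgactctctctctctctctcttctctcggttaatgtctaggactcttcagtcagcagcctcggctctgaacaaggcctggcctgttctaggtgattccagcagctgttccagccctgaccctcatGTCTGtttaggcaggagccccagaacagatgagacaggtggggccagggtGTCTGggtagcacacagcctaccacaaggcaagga
*Postn*, chr3:54360857-54361156, plus strand: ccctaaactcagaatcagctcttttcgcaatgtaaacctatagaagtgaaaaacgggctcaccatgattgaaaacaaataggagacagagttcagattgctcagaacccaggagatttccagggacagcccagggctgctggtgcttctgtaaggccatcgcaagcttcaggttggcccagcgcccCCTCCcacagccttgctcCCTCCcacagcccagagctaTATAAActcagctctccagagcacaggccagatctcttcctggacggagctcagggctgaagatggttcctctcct
*Tnc*, chr4:64046966-64047265, minus strand: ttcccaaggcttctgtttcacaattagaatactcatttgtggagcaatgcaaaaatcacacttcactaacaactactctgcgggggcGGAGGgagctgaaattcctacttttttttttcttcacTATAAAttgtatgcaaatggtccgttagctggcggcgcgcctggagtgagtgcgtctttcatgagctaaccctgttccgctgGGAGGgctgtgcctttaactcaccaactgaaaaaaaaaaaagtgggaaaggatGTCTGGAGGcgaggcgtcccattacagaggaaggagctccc
The *Postn* window held TATAAA 26 bases before its transcript start, and the *Tnc* window held it 126 bases before. Of the windows not shown, that of *Postn*, at chr3:54359017-54359316, held no TATAAA but 1 match each to CCAAT and CAGAC. That of *Tnc*, which overlaps the one shown, held the same TATAAA 205 bases before its start. It also held the letters TATATAAG closer to its start, which are not an exact match and were not counted. The *Sparc* window held neither TATAAA nor CCAAT and held CAGAC, read on the other strand, 2 times. Of 32851 promoter windows of this length, 13.62% held the letters TATAAA, while 37.41% held the CCAAT box, 72.92% held the motif GGAGG and 49.59% held the core CAGAC. In the *Tnc* window a CAGAC match on the other strand shares 1 base with a GGAGG match.

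The 6 libraries differed in other ways that bear on these genes. Summed over 10 fibroblast markers, of which *Lum* and *Mfap5* were the most abundant, the level was 5448.28 to 6867.88 TPM in SHF libraries and 9765.42 to 10183.82 TPM in CNC libraries, with no overlap. Summed over 8 endothelial markers, led by *Pecam1* and *Emcn*, SHF replicate 1 was at 51.22 TPM, SHF replicates 2 and 3 were at 580.67 and 463.16 TPM, and CNC libraries ranged from 21.79 to 37.86 TPM. *Cdh5*, *Vwf* and *Tie1* were listed at 0 in every CNC library. The 10 smooth muscle markers, led by *Myl9* and *Acta2*, summed to 1493.7 to 3115.73 TPM in SHF libraries and 1309.28 to 2029.36 TPM in CNC libraries. The defining smooth muscle gene *Myh11* was above 0 in all 6 libraries, at 17.43 to 125.0 TPM. In each library the fibroblast sum was above the smooth muscle sum, although the study refers to the sorted cells as vascular smooth muscle cells. Pericyte markers (5 genes) summed to 198.63 to 509.94 TPM in SHF and 421.99 to 475.74 TPM in CNC libraries, and valve and cartilage markers (6 genes) to 426.87 to 672.7 and 239.34 to 471.73 TPM. Cardiomyocyte markers (6 genes) summed to 67.37 to 126.38 TPM in SHF and 0.73 to 37.89 TPM in CNC libraries, and Schwann cell markers (6 genes) to 1.5 to 15.32 and 21.43 to 94.4 TPM, both without overlap. Leukocyte markers (8 genes) ran from 177.9 to 386.63 TPM in SHF and from 19.54 to 352.01 TPM in CNC libraries, with *Ptprc*, *Cd3e* and *Itgam* listed at 0 in all. The 5 mesothelial markers summed to 40.29 TPM in SHF replicate 3 and to at most 0.63 TPM elsewhere. The 8 dissociation response genes summed to 5411.75 to 10364.12 TPM in SHF and 6016.66 to 7547.4 TPM in CNC libraries. Of the sex-linked genes, *Xist* was above 0 only in SHF replicates 2 and 3, and *Ddx3y* and *Eif2s3y* only in the other 4 libraries. By these transcripts the sexes were not balanced between the lineages, so sex and lineage cannot be fully told apart in the comparisons below.

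**Figure D1:**
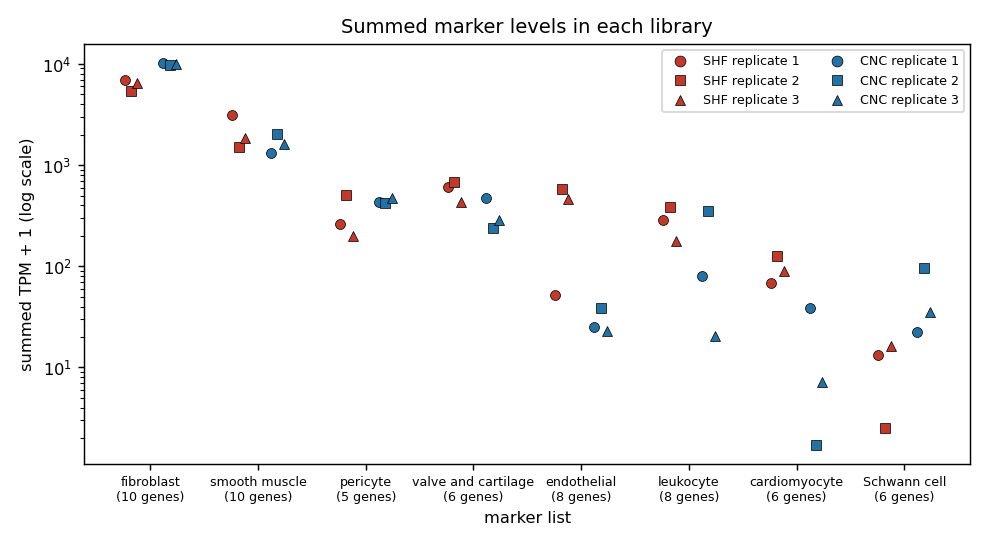
Summed TPM + 1 of 8 marker lists (log axis) in each of the 3 SHF (red) and 3 CNC (blue) libraries, with 1 symbol per replicate. Fibroblast sums are higher in each CNC library, from 9765.42 to 10183.82 TPM, and endothelial sums are highest in SHF replicates 2 and 3, at 580.67 and 463.16 TPM.

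The 8 genes ranged from among the most abundant transcripts to one listed at 0 throughout, and the order of the top 3 was the same in each library. *Sparc* was the highest of the 8 in all 6 libraries, followed by *Sparcl1* and then by *Postn* in all 6. By mean TPM over the 6 libraries, *Sparc* ranked 18, *Sparcl1* 138 and *Postn* 375 of 24421 rows. *Spon1* ranked 2960, *Tnxb* 3968 and *Spon2* 4699, and their order changed from library to library, so these 3 neighbors did not differ beyond their spread. *Tnc* ranked 8937. *Tnn* was listed at 0 in all 6 libraries. Together the 8 genes held 0.432% to 0.551% of TPM in SHF libraries and 0.645% to 0.999% in CNC libraries. *Sparc* made up 51.19% to 69.361% of that sum in SHF libraries and 78.901% to 91.586% in CNC libraries, so the sum largely follows *Sparc*.

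**Figure D2:**
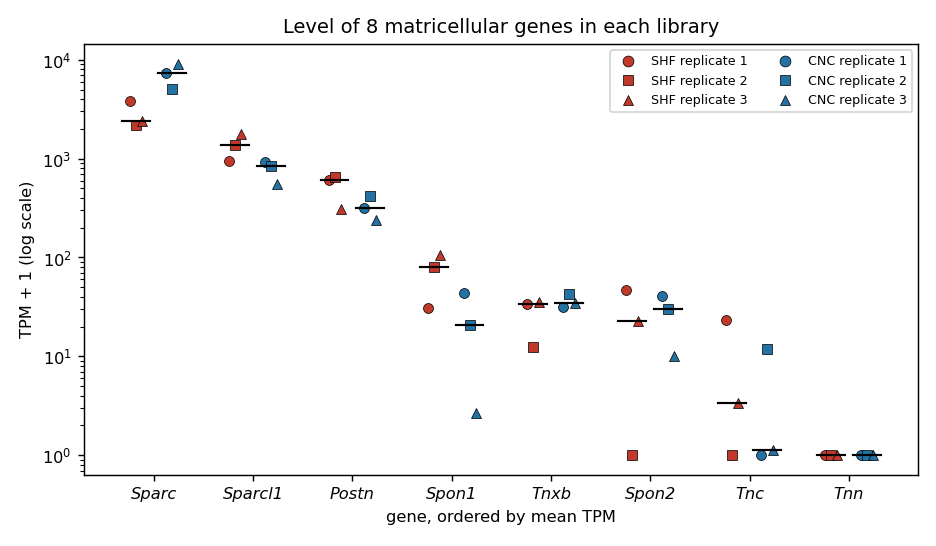
TPM + 1 (log axis) of the 8 genes, ordered by mean level, in each SHF (red) and CNC (blue) library, with a bar at the median of each lineage. *Sparc* lies between 2210.4 and 3820.46 TPM in SHF and between 5092.74 and 9148.1 TPM in CNC libraries, while *Tnc* and *Spon2* are listed at 0 in some libraries and *Tnn* in all.

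The comparison of SHF with CNC libraries asks which transcripts differ between the lineages that build the proximal aorta. Differences were tested with limma on log2(TPM + 1) as SHF minus CNC. The test covered the 10185 genes that reached 1 TPM in 3 or more libraries. Of the 8 genes, 7 passed this filter, and *Tnn* did not. At a Benjamini-Hochberg adjusted p under 0.05, 0 of the 7 were called, as were 0% of all genes tested. At an unadjusted p under 0.05 limma gave 2 of the 7, *Sparc* and *Sparcl1*, against 5.86% of all genes tested. SHF and CNC libraries did not overlap for the same 2 genes, against 11.8% of all genes tested. Of the 7 log2 differences, 4 were above 0 and 3 below, with a median of 0.65, against 0.03 over all genes. Without SHF replicate 1 this median fell below 0, to -0.37, the value of *Tnc*, against -0.04 over all genes. None of the 8 genes was exclusive to a lineage when this was taken as more than 5 TPM in all libraries of 1 lineage and 0 in all of the other, which 0.139% of all rows met. The threshold in the expressing lineage follows the study, and the limit in the other lineage was set here. With 3 libraries against 3, the smallest p that an exact permutation test of 1 gene allows is 0.1.

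**Figure D3:**
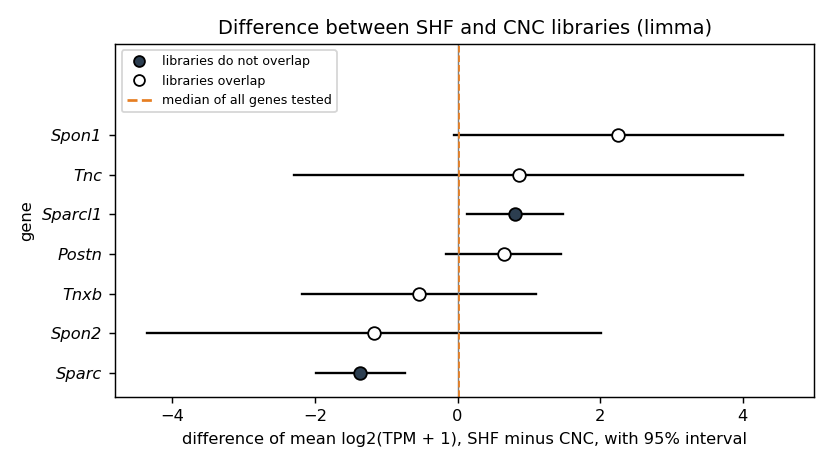
Difference of mean log2(TPM + 1), SHF minus CNC, from limma with its 95% interval for the 7 genes tested, with filled points where no SHF library overlaps a CNC library. *Sparc* is the lowest, at -1.36, and its interval and that of *Sparcl1*, at 0.80, do not reach 0, although no adjusted p passes 0.05.

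*Sparc* was higher in every CNC library than in any SHF library. In SHF replicates 1 to 3 the level stood at 3820.46, 2210.4 and 2401.25 TPM, and the CNC replicates, in the same order, had 7374.07, 5092.74 and 9148.1 TPM. The lowest CNC library, replicate 2, was above the highest SHF library, replicate 1, and *Sparc* ranked between 10 and 17 among all rows in CNC libraries and between 23 and 58 in SHF libraries. The means were 2811 ± 880 TPM (SD, n = 3) in SHF and 7205 ± 2033 TPM (SD, n = 3) in CNC libraries, a ratio of 2.56. The log2 difference was -1.36 with an SE of 0.28 and a 95% interval of -1.98 to -0.74. Its unadjusted limma p was 0.000534, which ranked 10 of 10185, and its adjusted p was 0.475. An exact two-sided permutation test gave p = 0.1, the smallest it can give. The fibroblast sums were also higher in each CNC library, at 10183.82, 9765.42 and 9922.57 TPM in CNC replicates 1 to 3, a narrower range than that of *Sparc*. Some of the 10 markers, such as *Lum*, overlapped between lineages, and others were higher in each CNC library. In these bulk samples more cells of a type and more RNA per cell cannot be told apart. When TPM was divided by the sum of the 10 fibroblast markers, the lineages overlapped for *Sparc*, since CNC replicate 2 (4225.08) was then below SHF replicate 1 (4506.78). The log2 difference of *Sparc* was then -0.68. This scaling moved the median of all genes from 0.03 to 0.62, and relative to the median of all genes *Sparc* was at -1.30, against -1.39 before it. For an abundant gene such a relative value is nearly fixed in advance, since all genes of a library are divided by the same factor. It therefore tests nothing about fibroblasts, here or where it is given below. Without SHF replicates 2 and 3, the libraries with *Xist* and the highest endothelial sums, a fit that assumes the lone SHF library to vary like the CNC libraries gave a log2 difference of -0.87.

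*Sparcl1*, which codes for the closest relative of SPARC, had the opposite order and was higher in every SHF library. In SHF replicates 1 to 3 the level stood at 945.66, 1373.08 and 1763.66 TPM, and the CNC replicates, in the same order, had 916.66, 846.43 and 555.61 TPM. The lineages did not overlap, but SHF replicate 1 lay just above CNC replicate 1. The means were 1361 ± 409 TPM (SD, n = 3) and 773 ± 191 TPM (SD, n = 3), a ratio of 1.76. The log2 difference was 0.80 with an SE of 0.31 and a 95% interval of 0.13 to 1.48, with an unadjusted limma p of 0.0238 and an adjusted p of 0.771. The exact two-sided permutation p was again 0.1. Median-of-ratios scaling ended the separation, with SHF replicate 1 at 868.86 and CNC replicate 1 at 877.61 scaled TPM. The libraries highest in *Sparcl1*, SHF replicates 2 and 3, were also those highest in the 8 endothelial markers, and the part of these cells in the result was not tested. Without both of them the log2 difference was 0.32, and after division by the fibroblast sum it was 1.48, or 0.86 relative to the median of all genes under that scaling. In TPM the ratio of *Sparcl1* to the endothelial marker *Pecam1*, chosen after values were seen, stood at 30.1, 9.31 and 12.5 in SHF replicates, against 94.3, 22.4 and 28.0 for CNC replicates. The lineages overlapped for this ratio, and both SHF replicates 2 and 3 lay below every CNC library.

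The balance of the SPARC relatives within a library does not depend on how the libraries are scaled. The ratio of *Sparc* to *Sparcl1* stood at 4.04, 1.61 and 1.36 in SHF replicates 1 to 3, and the CNC replicates had 8.04, 6.02 and 16.5. *Sparc* was thus the more abundant in all 6 libraries, and more so in each CNC library. This separation had to follow, since *Sparc* was higher in each CNC library and *Sparcl1* in each SHF library. The ratio and its test therefore add no separate support to the values of the 2 genes. On the log2 scale the ratio was 1.05 ± 0.84 (SD, n = 3) in SHF and 3.21 ± 0.75 (SD, n = 3) in CNC libraries, a difference of -2.16. Without SHF replicates 2 and 3 this difference was -1.20. The ratio of *Sparc* to *Postn* stood at 6.25, 3.43 and 7.81 in SHF replicates, against 23.5, 12.3 and 38.0 for CNC replicates, a difference of -2.01 on the log2 scale. For each of these ratios the exact two-sided permutation test gave p = 0.1, the smallest it can give, and 0.1 after adjustment over the 2 ratios tested. The other 3 of the 5 ratios planned, *Postn* to *Tnc*, *Tnxb* to *Tnc* and *Spon1* to *Spon2*, had no value in some library because a gene was listed at 0. Ratios of *Sparc* to 3 genes outside the 8, chosen after values were seen, are given as a description. The ratio to the collagen gene *Col1a1* stood at 0.841, 0.552 and 0.546 in SHF replicates, against 0.625, 0.696 and 0.716 for CNC replicates, and overlapped between lineages. The ratio to *Dcn*, which codes for the proteoglycan decorin, stood at 0.329, 0.173 and 0.192 in SHF replicates, against 0.612, 0.343 and 0.682 for CNC replicates. The ratio to the endothelial marker *Pecam1* stood at 121, 15.0 and 17.0 in SHF replicates, against 759, 135 and 462 for CNC replicates. Both of these ratios were higher in each CNC library. Of the same ratios for *Sparcl1* and *Postn*, those of both genes to *Col1a1* and of *Sparcl1* to *Dcn* were higher in each SHF library, and those of *Postn* to *Dcn* and to *Pecam1* overlapped.

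**Figure D4:**
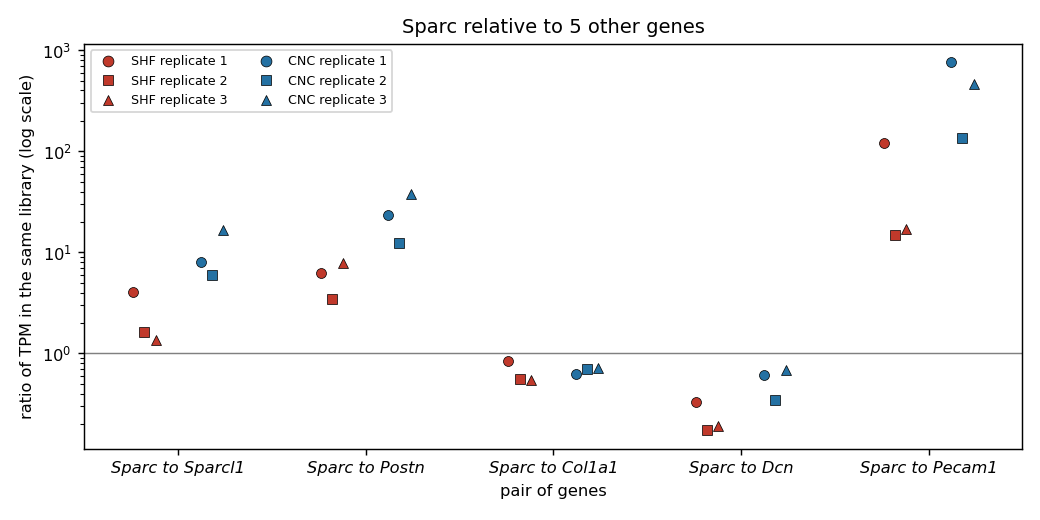
Ratio of *Sparc* TPM to that of *Sparcl1*, *Postn*, *Col1a1*, *Dcn* and *Pecam1* in the same library (log axis), with 1 symbol per SHF (red) and CNC (blue) replicate and a line at a ratio of 1. The ratio to *Col1a1* lies between 0.546 and 0.841 with the lineages mixed, and the other 4 ratios are higher in each CNC library.

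*Postn*, which codes for periostin, was abundant in both lineages. In SHF replicates 1 to 3 the level stood at 610.8, 643.8 and 307.43 TPM, and the CNC replicates, in the same order, had 314.1, 414.26 and 240.63 TPM. SHF replicates 1 and 2 were above all CNC libraries, while SHF replicate 3 lay below CNC replicates 1 and 2, so the lineages overlapped. The means were 521 ± 185 TPM (SD, n = 3) and 323.0 ± 87.2 TPM (SD, n = 3). The log2 difference was 0.65 with a 95% interval of -0.16 to 1.45 and an adjusted limma p of 0.874. The highest library was 2.67 times the lowest, the smallest such ratio of the 5 genes above 0 in all 6 libraries. Divided by the fibroblast sum, *Postn* no longer overlapped, with 387.84 to 957.34 in SHF and 196.47 to 343.68 in CNC libraries and a log2 difference of 1.33, at an adjusted p of 0.274. Relative to the median of all genes, which that scaling moved to 0.62, *Postn* was at 0.71 under it and at 0.62 before it, while 19.9% of all genes tested did not overlap under it. Without SHF replicate 3 the difference in TPM was 0.99 on the log2 scale.

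Of the tenascins, only *Tnxb* was above 0 in every library. In SHF replicates 1 to 3 *Tnxb* stood at 33.18, 11.54 and 34.19 TPM, and the CNC replicates, in the same order, had 30.45, 41.72 and 33.28 TPM. Apart from SHF replicate 2, the values lay close together and the lineages were mixed. The log2 difference was -0.54 with a 95% interval of -2.17 to 1.10 and an adjusted limma p of 0.924, and the difference was -0.05 without SHF replicate 2 and 0.12 after division by the fibroblast sum, or -0.50 relative to the median of all genes. *Tnc* stood at 22.47, 0 and 2.4 TPM in SHF replicates, and the CNC replicates had 0, 10.82 and 0.14 TPM. It was above 5 TPM in 2 libraries, 1 of each lineage, and listed at 0 in 2, again 1 of each. Its log2 difference of 0.86 had an interval of -2.29 to 4.004 and turned to -0.37 without SHF replicate 1, while it was 3.30 without SHF replicates 2 and 3, where the lone SHF library is the highest in *Tnc*. Of 3593 genes with a mean within 2 times that of *Tnc*, 73.8% were listed at 0 in at least 1 library. *Tnn* and the brain tenascin *Tnr* were listed at 0 in all 6 libraries. *Tnxb* has the longest coding transcript of the 8 genes, at 12209 bases, and *Tnc* has the next, at 7106 bases.

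*Spon1*, which codes for F-spondin, had the largest log2 difference of the 7 genes tested in the fit of all 6 libraries, with a wide interval. In SHF replicates 1 to 3 the level stood at 29.56, 79.25 and 105.49 TPM, and the CNC replicates, in the same order, had 42.23, 19.74 and 1.69 TPM. SHF replicates 2 and 3 were above every CNC library, while SHF replicate 1 lay below CNC replicate 1. The means were 71.4 ± 38.6 TPM (SD, n = 3) and 21.2 ± 20.3 TPM (SD, n = 3), a ratio of 3.37. The log2 difference was 2.25 with an SE of 1.05 and an interval of -0.05 to 4.56, with an adjusted limma p of 0.856. It was 1.09 without CNC replicate 3, where *Sparc* and *Spon2*, both below 0, had differences of larger size. SHF replicates 2 and 3, the highest in *Spon1*, were also the libraries highest in endothelial markers, whose part was not tested, and without both the difference was 1.19. *Spon2*, which codes for spondin 2, stood at 45.99, 0 and 21.92 TPM in SHF replicates, and the CNC replicates had 39.82, 28.9 and 9.06 TPM. The lineages were mixed, and the highest and the lowest value both came from SHF. Its log2 difference of -1.17 had an interval of -4.35 to 2.01 and turned to 0.51 without SHF replicate 2, where it was listed at 0. Of 4043 genes with a mean within 2 times that of *Spon2*, 38.5% were listed at 0 in at least 1 library.

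The genes whose log2(TPM + 1) followed each gene most closely over the 6 libraries are given as a description. The points share the libraries and their composition, and with 6 points many genes reach a high correlation. *Sparc* was followed most closely by *Srpx* (Pearson r = 0.990), *Sgpp1* (0.986) and *Efemp2* (0.984), the last of which codes for fibulin-4 of elastic fibers, and 114 of 10184 genes had r of at least 0.9. *Wisp2* was at place 5 of that order, *Col1a2* at 10 and *Col1a1* at 17. *Sparcl1* was followed most closely by *Poc5* (0.985), *Ick* (0.978) and *Lyar* (0.978), *Spon1* by *Agpat2* (0.990), *Stxbp2* (0.986) and *Mpv17l2* (0.982), and *Postn* by *Tpd52l2* (0.996), *Myh9* (0.973) and *Sart1* (0.971). The order was led by *Stard3nl*, *Lrrc41* and *Abi2* for *Tnxb*, by *Cxcl14*, *Gm11715* and *Zfp946* for *Tnc*, and by *Gbf1*, *Slc38a7* and *Myg1* for *Spon2*, with r between 0.990 and 0.998. These 3 genes have low levels or a library that stands apart, and the number of genes with r of at least 0.9 was 437 for *Tnxb*, 43 for *Tnc* and 285 for *Spon2*. Between the 8 genes, r was 0.94 for *Sparcl1* with *Spon1* and -0.90 for *Sparc* with *Sparcl1*.

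Among 16 relatives of these genes, 11 were tested, and limma called 0 at an adjusted p under 0.05 and 3 at an unadjusted p under 0.05, against 5.86% of all genes tested. SHF libraries were all higher for 1 of the 11 and CNC libraries for 3, against 6.11% and 5.68% of all genes tested, and the median log2 difference was 0.07, which turned to -0.40 without SHF replicate 1, to -0.36 without CNC replicate 2 and to -0.25 without SHF replicate 3. After division by the fibroblast sum it was 0.74, where the median of all genes was 0.62. *Tgfbi*, the paralog of periostin, stood at 603.29, 718.8 and 873.18 TPM in SHF replicates 1 to 3, and the CNC replicates had 1321.04, 1256.18 and 1309.57 TPM. The CNC libraries lay close together, and all were above all SHF libraries (log2 difference -0.84, adjusted p 0.625). After division by the fibroblast sum, which was itself higher in each CNC library, the difference of *Tgfbi* was -0.16, or -0.78 relative to the median of all genes. *Smoc2*, of the SPARC family, was at 551.76 to 811.37 TPM in SHF and 873 to 1234 TPM in CNC libraries (log2 difference -0.58, adjusted p 0.856, and a difference of 0.10 after division by the fibroblast sum, or -0.52 relative to the median of all genes). *Wisp2*, of the CCN family, was at 222 to 373 TPM in SHF and 456 to 1242 TPM in CNC libraries (log2 difference -1.44, adjusted p 0.529, and -0.77 after division by the fibroblast sum, or -1.38 relative to the median). *Wisp1*, of the same family, showed the opposite order, with 30.56, 45.8 and 31.96 TPM for SHF replicates 1 to 3 against 8.11, 0 and 10.4 TPM for the CNC replicates (log2 difference 2.96, adjusted p 0.812, and 1.84 without CNC replicate 2). *Fstl1*, also of the SPARC family, was the most abundant relative by mean over the 6 libraries. It overlapped, at 1535 to 1815 TPM in SHF and 1632 to 2792 TPM in CNC libraries. *Cyr61* overlapped too and was highest in SHF replicate 1, at 2019.01 TPM, where it was above *Fstl1*. *Tnr*, *Sspo*, the large spondin of the subcommissural organ, and *Wisp3* were listed at 0 in all 6 libraries.

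Among 14 receptors for these proteins, 11 were tested. Limma gave 0 at an adjusted p under 0.05 and 0 at an unadjusted p under 0.05, no receptor was separated between lineages, against 5.86% of all genes tested at the unadjusted p and 11.8% without overlap, and the median log2 difference was -0.36. That median was -0.05 without SHF replicate 2 and 0.03 without SHF replicate 3, and it was 0.31 after division by the fibroblast sum, where the median of all genes was 0.62. *Itgb1*, the beta 1 integrin subunit, was at 372 to 410 TPM in SHF and 269.5 to 394 TPM in CNC libraries. *Itgav*, the alpha V subunit that pairs to bind periostin, was at 55.2 to 122 TPM in SHF and 47.2 to 93.4 TPM in CNC libraries. *App*, whose product binds F-spondin, was at 292 to 406 TPM in SHF and 349 to 559 TPM in CNC libraries. *Itgb6* and *Lrp8*, another receptor for F-spondin, were listed at 0 in all 6 libraries.

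All 11 matrix partners were tested, and limma called 0 at an adjusted p under 0.05 and 5 at an unadjusted p under 0.05, against 5.86% of all genes tested. CNC libraries were all higher for 3 of the 11 and SHF libraries for 1, against 5.68% and 6.11% of all genes tested. The median log2 difference was -0.60, and it was -0.85 without SHF replicate 1, -0.25 without SHF replicate 2 and -0.31 without SHF replicates 2 and 3. After division by the fibroblast sum it was 0.08, against the same 0.62 over all genes. The 3 were the fibrillar collagen genes *Col1a1*, *Col1a2* and *Col3a1*, whose proteins SPARC binds. In SHF replicates 1 to 3 *Col1a1* stood at 4541.34, 4004.56 and 4396.34 TPM, and the CNC replicates, in the same order, had 11791.92, 7322.3 and 12778.1 TPM. As for *Sparc*, replicate 2 was the lowest CNC library, and all CNC libraries were above all SHF libraries (log2 difference -1.26, SE 0.24, adjusted p 0.465). *Col1a2* had a log2 difference of -1.08 (adjusted p 0.475) and *Col3a1* one of -0.80 (adjusted p 0.680). The fibroblast sums, like these collagen genes, were higher in each CNC library. After division by the sums the log2 differences were -0.58 for *Col1a1*, -0.40 for *Col1a2* and -0.12 for *Col3a1*. Relative to the median of all genes under that scaling they were -1.20, -1.02 and -0.73. *Vcan*, the proteoglycan that binds tenascins, was higher in each SHF library, at 135 to 304 TPM against 88.6 to 96.7 TPM (log2 difference 1.18, adjusted p 0.699, and 1.85 after division by the fibroblast sum, or 1.24 relative to the median). *Dcn*, whose product binds tenascin-X, was the most abundant partner by mean over the 6 libraries, at 11604 to 12756 TPM in SHF and 12054 to 14863 TPM in CNC libraries. *Col3a1* was above *Dcn* in CNC replicates 1 and 3. The log2 difference of *Dcn*, -0.13, had an interval of -0.53 to 0.28.

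**Figure D5:**
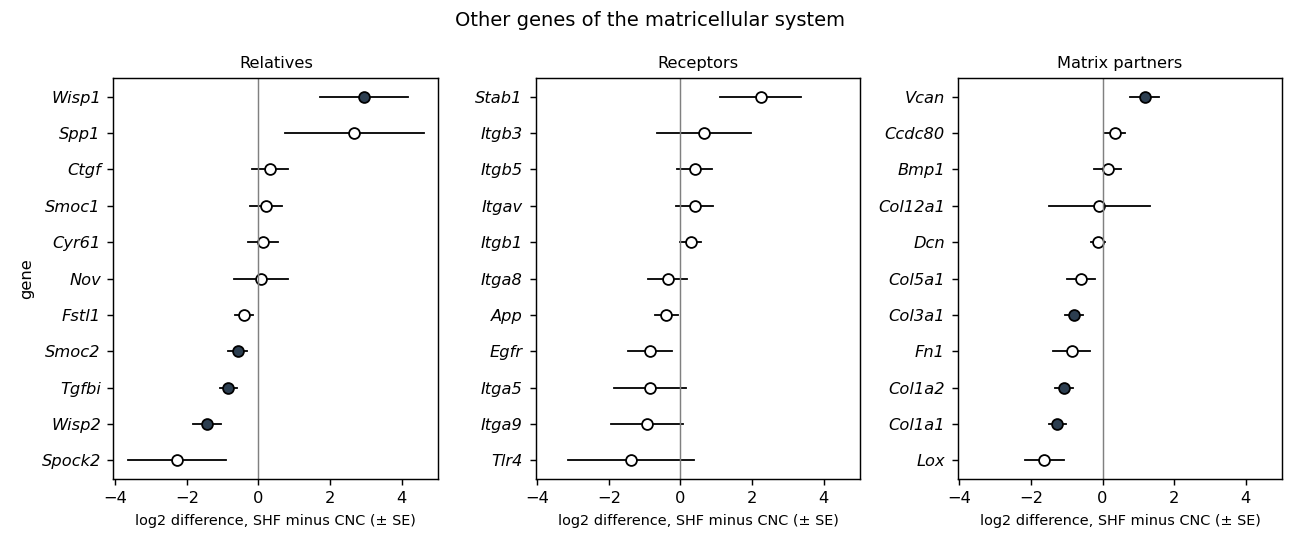
Difference of mean log2(TPM + 1), SHF minus CNC, ± SE from limma for the tested genes of 3 lists, with filled points where no SHF library overlaps a CNC library. Of 11 relatives 4 are filled, of 11 receptors 0, and of 11 matrix partners 4, including the collagen genes *Col1a1* at -1.26, *Col1a2* at -1.08 and *Col3a1* at -0.80, and no adjusted p passes 0.05.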

How the data were processed

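Bulk RNA sequencing of sorted SHF-traced and CNC-traced cells was analysed, 3 libraries per lineage. The authors amplified the RNA by SmartSeq2, prepared Nextera XT libraries, ran RSEM 1.2.25 with bowtie2 as the aligner on mm10, and deposited TPM values, each library in a column of its own. The annotation used for this is not given in the sources used here. Columns were matched to libraries by library code. Each column sums to 1000000 TPM, so depth is unknown and no counting interval was given. Amplification of little RNA without molecular identifiers can leave an expressed transcript at 0.

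From the deposited TPM, SHF and CNC libraries were compared on log2(TPM + 1) by limma 3.58.1 under R 4.3.3, using lmFit and eBayes with a trend. The 10185 genes that reached 1 TPM in 3 or more libraries were tested, and p-values were adjusted over all of them by Benjamini-Hochberg at a threshold of 0.05. For low genes this scale gives a smaller fold change than the TPM themselves. For single genes and ratios, exact permutation tests were used, two-sided throughout. Before use, the fit was run on simulated data only to see that it returned a large added difference. Its power for differences of the size seen for these genes was not examined. Alternatives tried were a pseudocount of 0.1 or 5, other filters on low values, scaling by median-of-ratios factors or quantiles, division by fibroblast markers, eBayes without a trend, library weights, a replicate block, and each library left out. The fit without SHF replicates 2 and 3, and the counts of genes without overlap when each library was left out, were chosen after the data were seen.

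The 8 genes, the lists and the markers were chosen with earlier results of these data known. Genes named are the 8 genes, the 3 most abundant of each list and those without overlap, the 2 most abundant markers of a list, and the 3 genes most alike each of the 8, while *Tnr*, *Sspo*, *Wisp3*, *Itgb6*, *Lrp8*, *Cdh5*, *Vwf*, *Tie1*, *Myh11*, *Ptprc*, *Cd3e*, *Itgam*, *Xist*, *Ddx3y* and *Eif2s3y* were named after their values were seen. Replicate numbers do not mark shared animals in the sources used here. The single-cell data were not analysed here. Python 3.11.15, pandas 2.3.3, scipy 1.17.1 and matplotlib 3.10.9 were used.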

Additional observations from a re-analysis of the deposited data

How the results depend on the processing

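No tested gene of the 8 passed the adjusted threshold in any of the 17 other fits. Among all genes the count was 0 except with a pseudocount of 5, where 1 gene passed, and 0 in each fit that left out 1 library. *Sparc*, *Sparcl1*, *Postn* and *Spon1* kept their direction in all 17, with *Sparc* from -1.60 to -0.68, *Sparcl1* from 0.32 to 1.48, *Postn* from 0.45 to 1.33 and *Spon1* from 1.09 to 3.10. Of the 7 genes tested, 2 did not overlap, against 11.8% of all genes tested. It was 1 after median-of-ratios scaling (11.8% of all genes), 3 after division by fibroblast markers (19.9%), for *Postn*, *Sparcl1* and *Spon1*, from 2 to 3 when 1 library was left out (20.1% to 25%), and 5 without SHF replicates 2 and 3 (43.5%), where 1 SHF library remains and any value outside the CNC range counts. Division by fibroblast markers moves the median of all genes to 0.62, and under it *Tnxb* was at 0.12, *Smoc2* at 0.10, *Fstl1* at 0.28, *App* at 0.28 and *Dcn* at 0.55, while the list medians were 0.74 for relatives, 0.31 for receptors and 0.08 for matrix partners. *Dcn* was at 0.04 after quantile normalization. *Spon2* was at 0.005 with library weights and 1.03 without SHF replicates 2 and 3, where *Itgav* was at -0.28. *Tnc* was at 1.74 with library weights and 3.30 without SHF replicates 2 and 3. When 1 library was left out, *Tnc* ran from -0.37 to 2.01, *Spon2* from -2.27 to 0.51 and *Cyr61* from -0.38 to 0.54. The cause was not tested. With 1 TPM added to both genes, the log2 difference was -0.21 for the ratio of *Postn* to *Tnc*, -1.39 for *Tnxb* to *Tnc* and 3.42 for *Spon1* to *Spon2*. The difference of the *Sparc* to *Sparcl1* ratio ran from -2.65 to -1.75 and that of *Sparc* to *Postn* from -2.44 to -1.62 when 1 library was left out. Without SHF replicates 2 and 3 these were -1.20 and -1.83.

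The correlations of deviations from the lineage means were -0.011, -0.004 and -0.011 for replicates 1, 2 and 3, which is no pairing by number. Under a replicate block 0 genes passed, and the log2 difference of *Sparc* was -1.36. Depth is unknown, which limits what the values of 0 for *Tnn*, *Tnc* and *Spon2* can show.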
